A study of Mus musculus with 9 samples.

Results

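AMPA and NMDA receptors are the glutamate-gated ion channels that carry most fast excitatory transmission. The genes described here are 10 of their subunit genes, chosen as the rows of the count table whose symbol was Gria1, Gria2, Gria3, Gria4, Grin1, Grin2a, Grin2b, Grin2c, Grin2d or Grin3a, and all 10 were found among 22337 genes. The 4 Gria genes encode AMPA receptor subunits and the 6 Grin genes encode NMDA receptor subunits. RNA-seq was performed on retinas collected at P28 from 3 groups with 3 libraries each. WT mice were C57 BL/6J and received no injection. The rd10 mice carry a homozygous missense mutation of Pde6b, a rod phosphodiesterase gene, and lose their rods. Each rd10 mouse was injected into the vitreous of both eyes at P14 and again at P21 with 1 μL of either normal saline (NS) or extracellular vesicles released by human umbilical cord mesenchymal stem cells (MSC-EVs). WT eyes were not injected, and the paper bought rd10 and WT mice from different suppliers. The effects of the rd10 genotype, the injection and the source of the mice therefore cannot be told apart when rd10 is compared with WT. The replicates are counted as animals or retinas in the study's methods, which do not say whether RNA was pooled or whether 2 retinas of an animal were used, so the p-values measure the spread between these libraries.

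AMPA receptors are tetramers of the subunits encoded by Gria1 to Gria4. NMDA receptors contain the subunit encoded by Grin1, which binds glycine, together with subunits encoded by Grin2a to Grin2d, which bind glutamate, or by Grin3a, which binds glycine. In the retina, photoreceptors release glutamate onto bipolar and horizontal cells and bipolar cells release it onto amacrine and ganglion cells. OFF bipolar cells and horizontal cells receive the signal through AMPA and kainate receptors, ON bipolar cells through the metabotropic receptor encoded by Grm6, and ganglion cells carry AMPA and NMDA receptors. Rods, the most numerous cells of the mouse retina, lie before these synapses.

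The libraries held 19491721 to 62532357 estimated counts, and the deepest was MSC-EVs replicate 3. Each member had at least 29 counts in every library, and all 10 passed the filter on low counts in every comparison. Levels are given as CPM, counts scaled to a common library size with TMM factors. The genes of the rod marker list (10 genes, including Gnat1 and Nrl) summed to 72516 to 77725 CPM in WT and to 14532 to 21316 CPM in the 6 rd10 libraries, so the libraries followed their genotype labels. Markers of bipolar, horizontal, amacrine and ganglion cells were present in all 9 libraries. Y-linked genes had 4379 and 4421 counts in MSC-EVs replicates 1 and 2 and 7 to 23 counts in each of the other 7 libraries, and the sex of the animals is not given in the sources used here.

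The sequence that ties the 10 genes together lies in the third membrane segment, which lines the channel. The same short motif was found in each of the 10 members, and the stretch is shown for 8 of them. The lines give 27 bases, 5′ to 3′ on the coding strand, from GENCODE transcripts (M21, GRCm38), and capitals mark bases that differ from Gria2.
Gria1: tcAtacacAgcCaacCtGgctgccttc
Gria2: tcctacacggctaacttagctgccttc
Gria3: tcctacacTgcAaacCtTgctgcTttc
Gria4: tcctacacTgctaaTCtGgctgcAttc
Grin1: tcctacacTgcCaacCtGgcAgccttc
Grin2a: AGTtacacAgcCaacCtGgctgccttc
Grin2c: AGctacacggcCaaTCtGgcAgccttc
Grin3a: AcAtacacAgcGaacttGgctgcTGtc

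Each of the genes shown differed from Gria2 at 5 to 7 of 27 bases, with 5 differences in Gria1, Gria3, Gria4 and Grin1 and 7 in Grin2a, Grin2c and Grin3a. At most 0.16% of a member's 50-base stretches occurred in another member, in Gria4, and no such stretch of Gria1 or of the 6 Grin genes did. Sharing with genes outside the family was highest for Grin2a, of whose 50-base stretches 11.57% occurred in other annotated genes, chiefly Gm7328. Antisense genes overlapped 13.47% of the exonic bases of Grin1 (Grin1os) and 9.66% of those of Grin2d (Gm45441). As no source says whether reads were counted by strand, the values of Grin1 and Grin2d may include reads of these partners.

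The pore loop, just before that segment, holds the site that distinguishes Gria2 within the AMPA family. In the Gria2 transcript the enzyme ADAR2, encoded by Adarb1, edits the glutamine codon so that arginine is inserted, and AMPA receptors with edited Gria2 pass little calcium. The 4 AMPA genes are shown with this glutamine codon in capitals, as the genome encodes it, in 45 bases each.
Gria1: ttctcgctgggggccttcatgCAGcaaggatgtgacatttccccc
Gria2: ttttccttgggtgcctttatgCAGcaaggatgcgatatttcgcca
Gria3: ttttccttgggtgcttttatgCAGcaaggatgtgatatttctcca
Gria4: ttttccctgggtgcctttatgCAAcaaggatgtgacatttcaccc

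The codon was CAG in Gria1, Gria2 and Gria3 and CAA in Gria4. The Gria2 stretch lies in exon 11 of 16 of its transcript at chr3:80706890-80706934 on the minus strand. The corresponding stretches lie at chr11:57243073-57243117 (plus strand, exon 11 of 16) in Gria1, at chrX:41610244-41610288 (plus strand, exon 11 of 16) in Gria3 and at chr9:4464116-4464160 (minus strand, exon 12 of 17) in Gria4. The deposited values are per gene, so they do not separate edited from unedited Gria2 transcripts.

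The 10 genes lie on 9 chromosomes (GRCm38, whole gene). Among the AMPA genes, Gria1 lies at chr11:57011387-57330244 and Gria3 at chrX:41400854-41678601 on the plus strand, and Gria2 at chr3:80681450-80802835 and Gria4 at chr9:4417896-4796234 on the minus strand. The 6 Grin genes are all on the minus strand. Grin1 lies at chr2:25291181-25319187, Grin2a at chr16:9567898-9995560, Grin2b at chr6:135713233-136173511, Grin2c at chr11:115249169-115267243, Grin2d at chr7:45831883-45878378 and Grin3a at chr4:49661611-49845744. Gria1 and Grin2c are the pair that share a chromosome.

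The levels of the members were first ordered on the FPKM scale, which divides counts by transcript length and by the library total. In WT retina, Grin1 (21.02 ± 1.09, SD, n = 3) and Gria4 (20.67 ± 1.42) were highest, and their libraries overlapped. Gria1 (10.68 ± 0.28) and Gria2 (10.37 ± 0.41) followed and overlapped with each other, and Gria3 came next at 6.64 ± 0.32. The NMDA subunits other than Grin1 lay far below, with Grin2d at 2.07 ± 0.19, Grin3a at 2.02 ± 0.08, Grin2a at 1.49 ± 0.21, Grin2b at 1.29 ± 0.14 and Grin2c at 0.357 ± 0.081. Grin2d overlapped with Grin3a, and Grin2a with Grin2b, while every Grin2c library lay below the other members.

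In NS-treated rd10 retina the highest FPKM was that of Gria4 (36.38 ± 1.9), and no library of it overlapped with those of Grin1 (27.22 ± 1.77). Below them the order Gria1 (16.15 ± 1.3), Gria2 (15.54 ± 0.98) and Gria3 (9.82 ± 0.72) was the same as in WT. In MSC-EVs-treated rd10 retina Gria4 (34.39 ± 2.89) was again above Grin1 (25.74 ± 2.22), and Gria1 (17.94 ± 0.15) was above Gria2 (15.36 ± 0.28) with no overlap. Grin2b stood ninth of the 10 by mean in WT and in NS-treated rd10 and sixth in MSC-EVs-treated rd10, at 2.92 ± 0.79 FPKM. Its libraries overlapped with those of Grin2d, Grin3a and Grin2a with MSC-EVs and with those of Grin3a and Grin2a with NS, so these ranks were not distinct. Grin2c was lowest in all 3 groups, at 0.76 ± 0.036 FPKM with NS and 0.69 ± 0.14 with MSC-EVs.

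**Figure D1:**
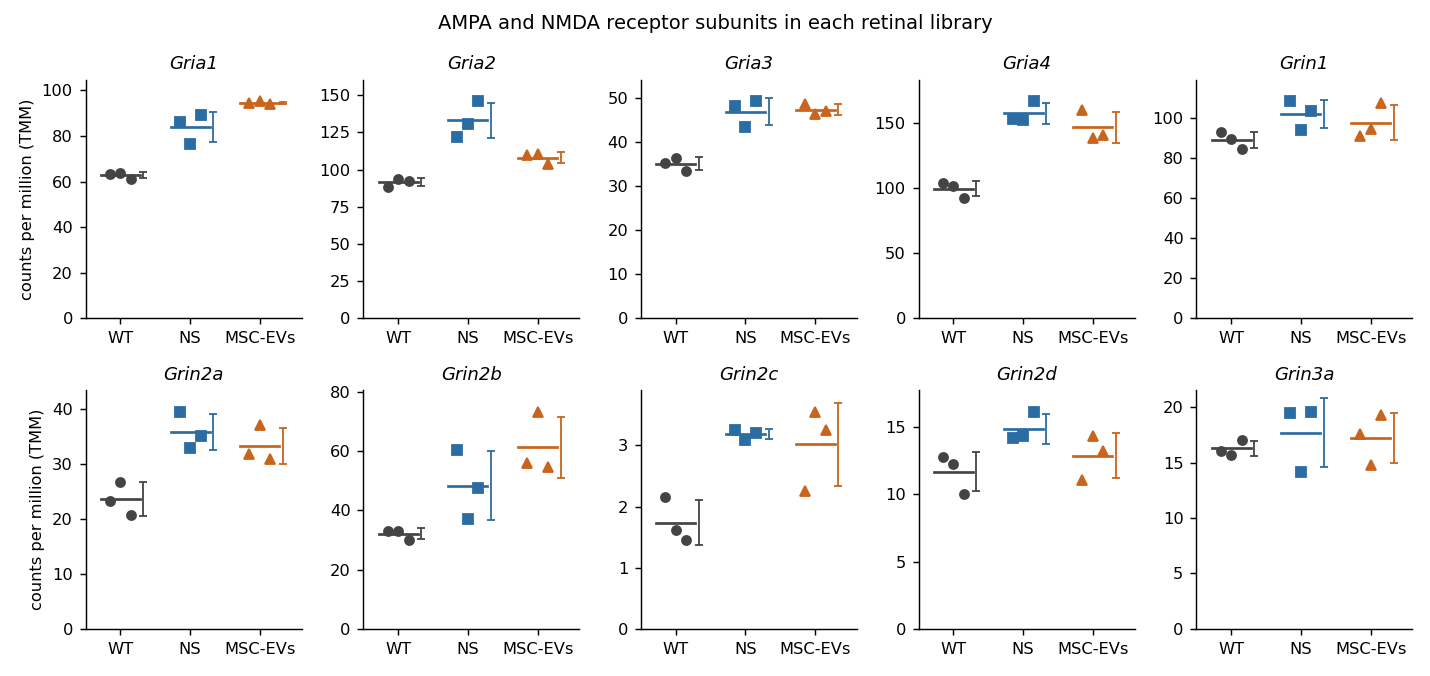
CPM, scaled by TMM over the 9 libraries, of each subunit gene in retinas of the 3 groups (WT, rd10 with NS, rd10 with MSC-EVs). Points are libraries, horizontal lines are group means and bars are SDs (n = 3), and each vertical axis starts at 0. For Gria1, Gria2, Gria3, Gria4, Grin2a, Grin2b and Grin2c every rd10 library lay above every WT library.

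The first comparison asked how the subunits differed between the degenerating retina and WT. In NS-treated rd10 retina 9 of the 10 genes were higher than in WT by edgeR's quasi-likelihood test (adjusted p under 0.05 over 14644 genes), and none was lower. All 4 AMPA subunits and 5 of the 6 NMDA subunits rose, by log2 fold changes of 0.20 to 0.86, and Grin3a did not pass. Among all genes tested 31.2% were called higher and 30.1% lower, so calls were common in this comparison. The median log2 fold change was 0.476 over the members and 0.00532 over all genes tested. No member reached a log2 fold change of 1 in size, a limit that 12.7% of all genes passed together with the adjusted p. The NS-treated and WT libraries lay apart for 9 members, as for 66.9% of all genes. The values below are CPM in replicates 1, 2 and 3 of each group, and fold changes are NS-treated over WT with adjusted p from edgeR.

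Gria4, which encodes the AMPA subunit with the highest level per length, had 104, 102 and 93.0 CPM in WT and 154, 153 and 167 CPM in NS-treated rd10. It had the smallest adjusted p among the members, with a log2 fold change of 0.66 (SE 0.062, adjusted p = 2.29e-06). Gria2 had 88.4, 93.7 and 92.4 CPM in WT and 122, 131 and 146 CPM in NS-treated rd10, a log2 fold change of 0.54 (SE 0.065, adjusted p = 2.03e-05). Both genes were higher in all 3 NS-treated libraries than in any WT library. Gria1 rose from 63.5, 63.8 and 61.3 CPM in WT to 86.3, 76.3 and 89.2 CPM (log2 fold change 0.42, SE 0.067, adjusted p = 0.000189). Gria3, which is X-linked, rose from 35.3, 36.4 and 33.4 CPM to 48.0, 43.3 and 49.1 CPM (log2 fold change 0.42, SE 0.072, adjusted p = 0.000337). NS replicate 2 was the lowest of its group for Gria1 and Gria3.

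Grin1, the subunit that every NMDA receptor contains, rose less than the AMPA subunits, with 92.6, 89.4 and 84.4 CPM in WT and 108, 94.0 and 104 CPM in NS-treated rd10. Its log2 fold change was 0.20 (SE 0.066, adjusted p = 0.0215), and the lowest NS-treated library lay just above the highest WT library. Among the subunits that bind glutamate, Grin2a had 23.2, 26.8 and 20.7 CPM in WT and 39.5, 32.9 and 35.1 CPM in NS-treated rd10 (log2 fold change 0.60, SE 0.105, adjusted p = 0.000352). The groups were clearly apart for Grin2a.

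Grin2b had 33.20, 33.17 and 30.03 CPM in WT and 60.4, 37.1 and 47.6 CPM in NS-treated rd10, a log2 fold change of 0.59 (SE 0.166, adjusted p = 0.0151). Its NS-treated libraries were spread more widely than those of any other member in SD (11.7 CPM) except Gria2 (11.9 CPM at a higher mean). In the same 3 libraries the summed level of the 7 retinal pigment epithelium markers was 140.5, 42.4 and 94.3 CPM, against 24.8 to 39.6 CPM in WT. In the MSC-EVs libraries the order differed, with marker sums of 43.1, 42.5 and 80.3 CPM and Grin2b at 56.0, 73.2 and 54.7 CPM. The part of this tissue in the Grin2b spread was not tested. Grin2c, the scarcest member, had 48, 36 and 29 counts (2.15, 1.61 and 1.45 CPM) in WT and 96, 63 and 70 counts (3.25, 3.09 and 3.21 CPM) in NS-treated rd10. Its log2 fold change of 0.86 was the largest of the 10 but also had the largest SE (0.219, adjusted p = 0.0046).

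Grin2d had 12.8, 12.2 and 10.1 CPM in WT and 14.2, 14.3 and 16.1 CPM in NS-treated rd10 (log2 fold change 0.34, SE 0.113, adjusted p = 0.02). Grin3a, whose subunit lowers the calcium flow of NMDA receptors, had 16.1, 15.7 and 17.1 CPM in WT and 19.4, 14.1 and 19.6 CPM in NS-treated rd10. The groups overlapped for Grin3a, since NS replicate 2 was below every WT library, and the log2 fold change of 0.12 (95% interval -0.14 to 0.39, adjusted p = 0.39) was not significant. Without NS replicate 2, Grin3a was also called higher (adjusted p = 0.024). The calls of Grin1, Grin2b and Grin2d were lost without WT replicate 3 (adjusted p from 0.0562 to 0.0902), those of Grin1 and Grin2d without NS replicate 3 (0.0526 and 0.0789), and that of Grin1 also without WT replicate 2 (0.0524) or NS replicate 1 (0.0776).

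Because these are whole retinas, fewer cells of a type and less RNA per cell cannot be told apart, and CPM are shares of a library. Beside the rise of the members, all 10 rod markers were lower in NS-treated rd10 than in WT, with a median log2 fold change of -1.82. Of 9 cone markers 2 were higher and 3 lower (summed 1418 to 1631 CPM in WT and 1133 to 1243 CPM with NS). For all genes tested these shares were 31.2% higher and 30.1% lower. Of 35 markers of bipolar, horizontal, amacrine and ganglion cells, 22 were higher and 1 was lower, with a median log2 fold change of 0.272. Markers of Müller glia were higher for 5 of 6 (summed 2266 to 2384 CPM in WT and 4552 to 4781 CPM with NS), and those of microglia for 8 of 8 (24.3 to 27.1 CPM and 178 to 215 CPM). Markers of endothelial cells were higher for 4 of 4 (196 to 203 CPM and 326 to 359.7 CPM) and those of retinal pigment epithelium for 3 of 7 (24.8 to 39.6 CPM and 42.4 to 140.5 CPM). None of the 5 lens markers was called. Of the 6 oligodendrocyte markers 3 passed the filter, 1 higher and 1 lower, and Mobp was at 0 counts in 5 of the 9 libraries. The part of these cell types in the rise of the subunits was not tested.

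When the libraries were scaled to the geometric mean of the 35 inner retinal markers in place of TMM, the median log2 fold change of all genes shifted by -0.236 and 5 members remained higher in NS-treated rd10. These were Gria2 (log2 fold change 0.30, adjusted p = 0.00829), Gria4 (0.42, adjusted p = 0.000249), Grin2a (0.37, adjusted p = 0.00842), Grin2b (0.35, adjusted p = 0.0206) and Grin2c (0.63, adjusted p = 0.03). Gria1 (0.18, adjusted p = 0.0784), Gria3 (0.18, adjusted p = 0.103) and Grin2d (0.11, adjusted p = 0.487) were then no longer called, and Grin1 (-0.04, adjusted p = 0.679) and Grin3a (-0.13, adjusted p = 0.389) turned to the other sign. So the count of subunits that rose depended on the reference against which the retina was scaled, from 9 of 10 to 5 of 10.

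**Figure D2:**
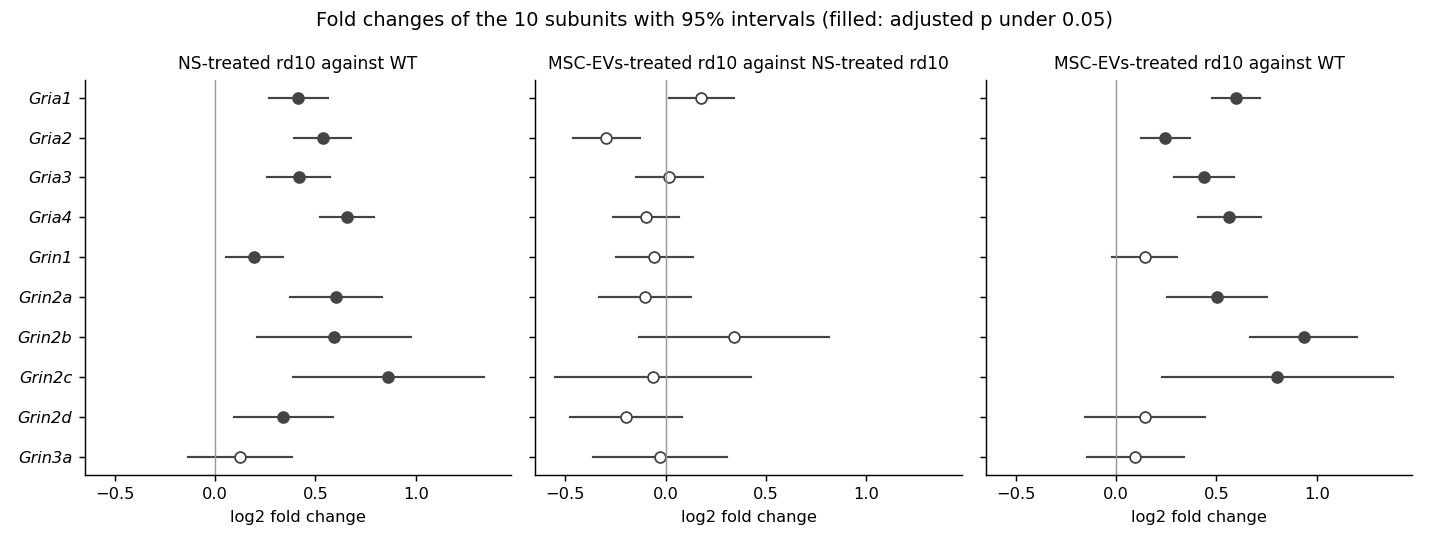
Log2 fold changes of the 10 subunit genes in the 3 comparisons, from edgeR, with 95% intervals as lines. Filled points passed an adjusted p of 0.05, which 9 members did for NS-treated rd10 against WT, 0 for MSC-EVs-treated against NS-treated rd10 and 7 for MSC-EVs-treated rd10 against WT.

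The second comparison asked whether the subunits differed between MSC-EVs-treated and NS-treated rd10 retina. MSC-EVs replicates 1 and 2 carried many Y-linked counts and the NS libraries few. Treatment and a possible difference in sex therefore cannot be fully told apart here. No member was called higher or lower in MSC-EVs-treated against NS-treated rd10 (edgeR, 14765 genes), where 0.914% of all genes were called higher, 0.251% lower and 0.061% with a log2 fold change of 1 or more in size. At an unadjusted p under 0.05 there were 2 members, Gria2 and Gria1. DESeq2's Wald test called 1, Gria2, as did edgeR with all 9 libraries in 1 fit, and limma on log2(FPKM + 1) called 0. The median log2 fold change was -0.0602 over the members and -0.0016 over all genes. The groups did not overlap for 2 of the 10 members and for 26.3% of all genes.

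Gria2 stood at 122, 131 and 146 CPM after NS and at 109.7, 110.4 and 104 CPM after MSC-EVs, so every MSC-EVs library was below every NS library and above every WT library. Its log2 fold change was -0.30 (SE 0.075, 95% interval -0.46 to -0.13, adjusted p = 0.0835), and the adjusted p was 0.0205 with DESeq2 and 0.0237 with all 9 libraries. Over all alternatives its adjusted p ran from 0.0205 to 0.941, with the difference below 0 in each. Gria1 moved the other way, from 86.3, 76.3 and 89.2 CPM to 94.5, 95.2 and 94.2 CPM, again without overlap. Its log2 fold change was 0.18 (SE 0.072, 95% interval 0.017 to 0.34, adjusted p = 0.207). The interval of each excluded a change of 0, but neither passed the adjusted threshold in edgeR.

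The Gria2 difference was seen in counts and not in FPKM. Gria2 had 15.74, 14.48 and 16.41 FPKM with NS and 15.50, 15.54 and 15.03 FPKM with MSC-EVs, and limma on log2(FPKM + 1) gave a difference of -0.01 (adjusted p = 0.94). The transcript length that links count and FPKM can be worked out for each library from the count, the FPKM and the library total. For Gria2 this implied length was 7676, 8249 and 8583 bases in WT, 8048, 9462 and 9346 bases with NS and 7339, 7362 and 7106 bases with MSC-EVs. It was thus shorter in every MSC-EVs library than in any other library. The ratio of the highest to the lowest implied length was 1.33 for Gria2, which was larger than for 94.8% of 11856 genes, whose median ratio was 1.04. The annotation holds coding Gria2 transcripts of 10371 and 4026 bases. Whether the mixture of Gria2 transcripts differed was not tested, since the values are per gene.

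For Grin2b the MSC-EVs libraries had 56.0, 73.2 and 54.7 CPM against 60.4, 37.1 and 47.6 CPM with NS. The groups overlapped, and the log2 fold change of 0.34 had a 95% interval of -0.13 to 0.81 (adjusted p = 0.388). MSC-EVs replicate 2 was the highest library for Grin2b and had the shortest implied length of this gene, 19788 bases, against 21574 to 24086 bases elsewhere. The implied lengths of the other 8 members varied by ratios of 1.00 to 1.14.

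**Figure D3:**
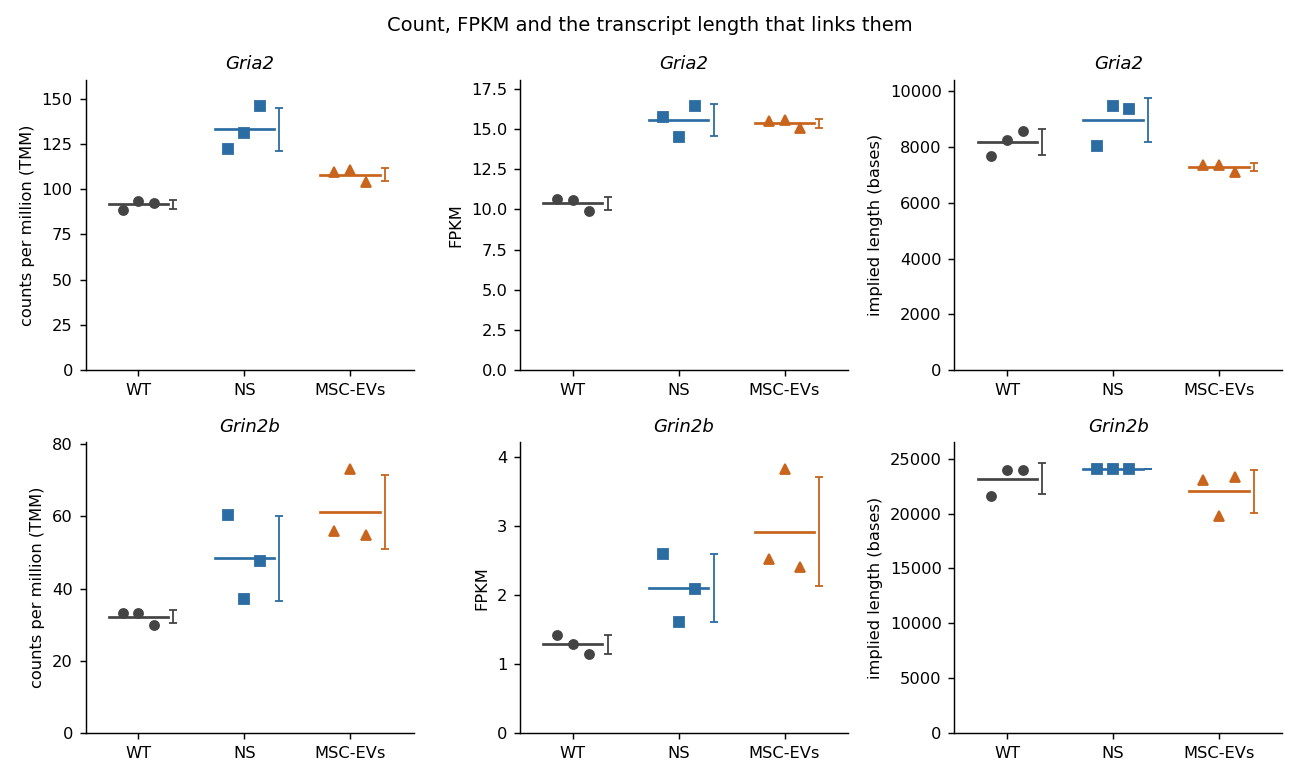
CPM, FPKM and implied transcript length in bases of Gria2 (top) and Grin2b (bottom) in each retinal library of the 3 groups. Points are libraries, lines are means and bars are SDs (n = 3). The Gria2 implied length was 7106 to 7362 bases with MSC-EVs and 7676 to 9462 bases in the other 6 libraries.

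The other 7 members did not differ significantly between the rd10 groups, and their intervals bound the change. For Gria3 (46.3 to 48.6 CPM with MSC-EVs) the log2 fold change was 0.02 with an interval of -0.15 to 0.19, and for Gria4 (139 to 161 CPM) it was -0.10 with an interval of -0.26 to 0.07. Gria3 had 48.6 and 46.3 CPM in the 2 MSC-EVs libraries with Y-linked counts and 47.0 CPM in the third. Grin1 had 90.8 to 108 CPM with MSC-EVs and a log2 fold change of -0.06 (-0.25 to 0.14). Grin2a (-0.10, -0.33 to 0.12), Grin2d (-0.20, -0.48 to 0.08), Grin2c (-0.06, -0.55 to 0.42) and Grin3a (-0.03, -0.36 to 0.30) had wider intervals, widest for the scarce Grin2c. In the cell type lists, 1 bipolar cell marker was lower with MSC-EVs, and no other marker was called in either direction. All 9 cone markers had log2 fold changes below 0 with MSC-EVs (-0.76 to -0.02, median -0.324), and none of them was called. Summed cone markers were 918 to 1178 CPM with MSC-EVs and 1133 to 1243 CPM with NS. Summed rod markers were 15223 to 21316 CPM with MSC-EVs and 14532 to 20851 CPM with NS.

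The third comparison set MSC-EVs-treated rd10 against WT. It shares the WT libraries with the first comparison and the MSC-EVs libraries with the second, so the limit on sex applies here too. In MSC-EVs-treated rd10 7 members were higher than in WT and none was lower (edgeR, 14623 genes), while 28.3% of all genes were called higher and 27.2% lower. The median log2 fold change was 0.47 over the members and -0.00411 over all genes, and no member reached a log2 fold change of 1 in size, which 12.2% of all genes did with the adjusted p. The groups did not overlap for 7 members and for 65.2% of all genes.

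All 4 AMPA subunits were higher in MSC-EVs-treated rd10 than in WT. Gria1 (95 against 63 CPM on average) had a log2 fold change of 0.60 (adjusted p = 1.43e-05), Gria4 of 0.56 (adjusted p = 0.000114), Gria3 of 0.44 (adjusted p = 4e-04) and Gria2 of 0.24 (adjusted p = 0.00389). The Gria2 value is on counts, and its implied length was shorter in every MSC-EVs library, as given above. In FPKM, which are not TMM-scaled, Gria2 averaged 10.37 in WT, 15.54 with NS and 15.36 with MSC-EVs. Among the NMDA subunits, Grin2b had the largest change, from 32.1 ± 1.8 CPM in WT to 61.3 ± 10.3 CPM (log2 fold change 0.93, SE 0.117, adjusted p = 0.000196). Grin2a (0.50, adjusted p = 0.00383) and Grin2c (0.80, adjusted p = 0.0228) were also higher. The Grin2c call was lost without WT replicate 2 or 3 or without MSC-EVs replicate 2 or 3 (adjusted p from 0.0502 to 0.0876).

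Grin1 (0.14, adjusted p = 0.118), Grin2d (0.15, adjusted p = 0.382) and Grin3a (0.09, adjusted p = 0.481) were not called in this comparison. Grin1 and Grin2d were called with NS and not with MSC-EVs, but the difference between the 2 rd10 groups, given above, was not significant for either. Limma on log2(FPKM + 1), a scale without TMM factors, called 8 members higher with MSC-EVs than in WT. Without MSC-EVs replicates 1 and 2, which carried Y-linked counts, the MSC-EVs group is the single library of replicate 3, which the fit assumes to vary like the WT libraries. Under that assumption edgeR called Grin1 higher (0.28, adjusted p = 0.00249) and 8 members higher than in WT. Scaled to the inner retinal markers, 5 of the 7 calls remained, and those of Gria2 (0.10, adjusted p = 0.349) and Grin2c (0.66, adjusted p = 0.055) were lost.

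Within each receptor family, the share of each subunit in the summed FPKM was compared between the 3 WT and the 6 rd10 libraries, by an exact permutation test (two-sided, smallest possible p 0.0238) with adjustment over the 10 shares. None of the 10 shares passed, and the smallest adjusted p was 0.0595. After adjustment over 10 shares, a single share at the smallest possible p could not pass by itself. The lack of calls therefore says little about any single share. Gria4 held the largest AMPA share, with 42.7% ± 0.9 in WT, 46.7% ± 1.5 with NS and 44.1% ± 2.0 with MSC-EVs. The MSC-EVs libraries (42.6% to 46.4%) overlapped with those of WT (41.8% to 43.5%), and the NS libraries (45.2% to 48.2%) lay above WT. The Gria2 share was 21.3% to 21.7% in WT and 19.1% to 20.4% in the 6 rd10 libraries, a difference of -1.6 percentage points without overlap (exact permutation p = 0.0238, adjusted p = 0.0595). Taken from CPM, the Gria2 shares of NS-treated rd10 and WT overlapped. Gria2 had 88.4 of 291.4 AMPA CPM in WT replicate 1 and 130.9 of 403.4 in NS replicate 2. With MSC-EVs the Gria2 share of CPM was below WT in every library, highest in MSC-EVs replicate 2 with 110.4 of 391.1. In FPKM the Gria3 share was also lower in all 6 rd10 libraries, by -0.90 points with the same p. The nearest libraries were at 13.54% (MSC-EVs replicate 3) and 13.55% (WT replicate 1), and the Gria3 shares overlapped when taken from CPM. The Gria1 share was 22.1% ± 0.6 in WT, 20.7% ± 0.7 with NS and 23.1% ± 0.8 with MSC-EVs, so the rd10 groups lay on both sides of WT.

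In the NMDA family Grin1 held 74.1% to 74.7% of the summed FPKM in WT and 67.0% to 72.7% in rd10, a difference of -3.56 points with no overlap (exact permutation p = 0.0238, adjusted p = 0.0595). The Grin2c share was higher in all 6 rd10 libraries (1.56% to 2.12%) than in WT (1.08% to 1.53%), with the same p. Taken from CPM, the Grin2c shares overlapped, with 2.15 of 180.0 NMDA CPM in WT replicate 1 and 2.26 of 209.6 in MSC-EVs replicate 1. The Grin2b share was 4.55% ± 0.25 in WT, 5.47% ± 0.92 with NS and 7.97% ± 2.1 with MSC-EVs, and the Grin2a share was 5.27% ± 0.58, 6.72% ± 0.24 and 6.48% ± 0.79 (both exact permutation p = 0.0476, adjusted p = 0.0794). The ratio of Grin2b to Grin2a FPKM was 0.754 to 0.973 in WT, 0.682 to 0.932 with NS and 1.09 to 1.46 with MSC-EVs. This ratio was therefore highest in the 3 MSC-EVs libraries, a description for which no test was run.

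The summed FPKM of the AMPA subunits was 49.8, 49.7 and 45.6 in WT, 77.4, 73.8 and 82.5 with NS and 81.2, 76.2 and 76.1 with MSC-EVs. That of the 6 NMDA subunits was 29.4, 28.8 and 26.5 in WT, 40.3, 34.8 and 39.1 with NS and 34.0, 37.2 and 38.9 with MSC-EVs. The AMPA sum was thus 1.69 to 1.73 times the NMDA sum in WT and 1.92 to 2.39 times in rd10, with no overlap in FPKM. Taken from CPM, this ratio overlapped between WT and rd10. The AMPA and NMDA sums were 280.1 and 163.7 CPM in WT replicate 3 and 391.1 and 237.2 CPM in MSC-EVs replicate 2. No test of the ratio was run. FPKM are not scaled for composition as the CPM are. Over all genes, the median difference of log2(FPKM + 1) between NS-treated rd10 and WT lay 0.161 above that of the TMM-scaled counts, so FPKM rises from WT are larger than the CPM rises given above.

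**Figure D4:**
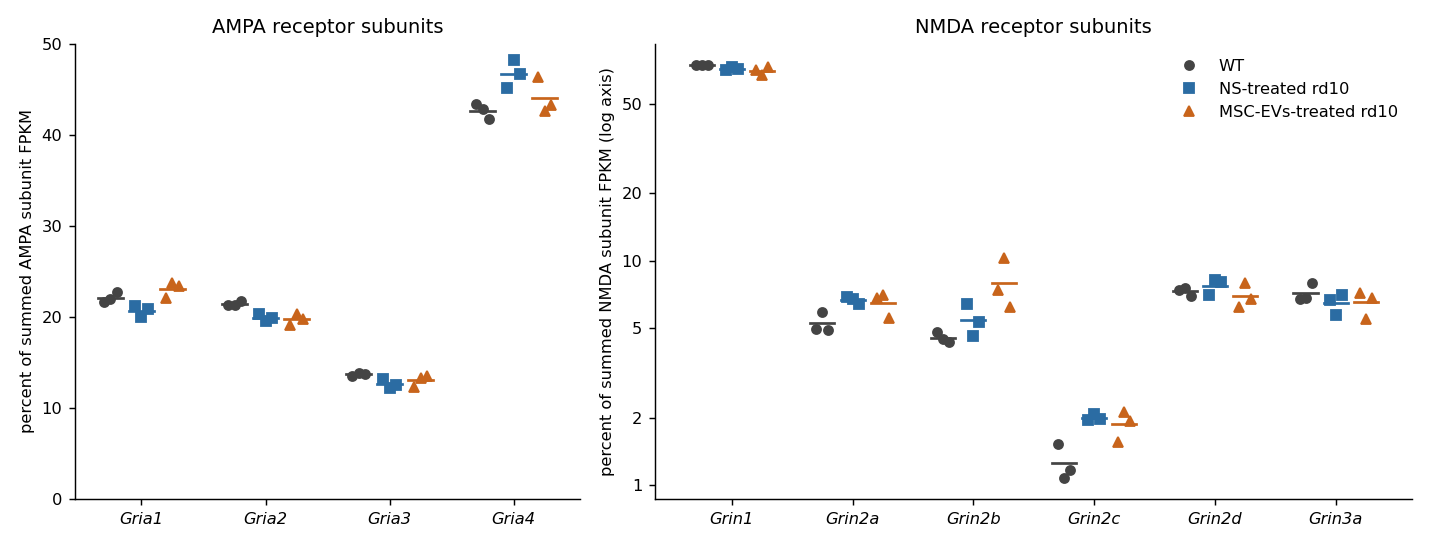
Share of each subunit in the summed FPKM of its family, in percent, for the libraries of the 3 groups, with a linear axis for AMPA subunits and a log axis for NMDA subunits. Points are libraries and lines are group means. The Gria2, Gria3 and Grin1 shares were lower, and the Grin2c share higher, in all 6 rd10 libraries than in the 3 WT libraries, though no adjusted p passed 0.05. Taken from CPM in place of FPKM, the Gria3 and Grin2c shares overlapped between WT and rd10. The Gria2 shares from CPM overlapped between WT and NS and lay below WT with MSC-EVs.

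The likeness of profiles over the 9 libraries was measured as the root mean square difference of gene-centred log2 CPM. Within the family the most alike pair was Gria1 and Gria3 (0.0793) and the least alike was Grin2c and Grin3a (0.442). Gria2 differed from Gria1 by 0.214. Among 13823 genes, the gene closest to each member was Arnt2 for Gria1 (0.032), Zfp385c for Gria2 (0.0431), Gpld1 for Gria3 (0.0316) and Pon2 for Gria4 (0.0373). For the NMDA subunits it was Syn1, which encodes synapsin I of synaptic vesicles, for Grin1 (0.0399), Epha5 for Grin2a (0.0747), Trpm4 for Grin2b (0.11), Zfp710 for Grin2c (0.145), Azin2 for Grin2d (0.0687) and the channel gene Hcn3 for Grin3a (0.0448). No member was the closest gene of another member.

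The genes that work with these receptors were examined in 7 lists holding 72 genes, of which 71 passed the filter. In NS-treated rd10 against WT 41 were higher and 9 lower, with a median log2 fold change of 0.294. Among all genes tested 31.2% were called higher and 30.1% lower. Other ionotropic glutamate receptors, among them the kainate receptors, were higher for 6 of 8 and lower for 0, with a list median of 0.346. Among them, Grik2, a kainate receptor subunit, had a log2 fold change of 0.77 (adjusted p = 5.71e-06). Metabotropic receptors were higher for 5 of 8 and lower for 0, led by Grm7 (0.70, adjusted p = 4.38e-06) and Grm5 (0.70, adjusted p = 1.06e-05). Auxiliary proteins of the AMPA receptor, which set its trafficking and gating, were higher for 12 of 15 and lower for 0 (median 0.398), with Cpt1c (0.57, adjusted p = 1.23e-05) and Shisa6 (0.83, adjusted p = 3.95e-05) first.

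Scaffold and trafficking proteins of the synapse moved in both directions, with 11 of 22 higher and 3 lower. Shank2 (0.41, adjusted p = 3.94e-05), a postsynaptic scaffold, and Nptxr (0.40, adjusted p = 0.000213), the neuronal pentraxin receptor, were higher. Dlg4, which encodes the scaffold PSD-95, was lower at 454 against 680.2 CPM (-0.59, adjusted p = 4.61e-06), as was Dlg1 (-0.33, adjusted p = 0.000156). Among the genes of glutamate release and removal 3 of 10 were higher and 4 lower, near the shares of all genes. The vesicular glutamate transporter Slc17a7, which photoreceptors and bipolar cells use, fell from 2095 to 906 CPM (-1.21, adjusted p = 1.48e-08), and the transporter Slc1a7 fell too (-0.63, adjusted p = 6.31e-07). The glial transporter Slc1a3 (0.68, adjusted p = 9.33e-07) and the neuronal transporter Slc1a1 (0.51, adjusted p = 1.32e-05) were higher.

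Of the genes that supply or remove the co-agonists of the NMDA receptor, 2 of 5 were higher and 2 lower, near the shares of all genes. Dao did not pass the filter and was at 0 counts in 3 libraries. The glycine transporter Slc6a9 (0.20, adjusted p = 0.0411) and Slc1a4 (0.19, adjusted p = 0.0464) were higher, and Srr, which makes D-serine (-0.25, adjusted p = 0.0043), and Slc1a5 (-0.42, adjusted p = 0.0154) were lower. The libraries of the groups overlapped for Slc6a9. Of the 3 adenosine deaminases acting on RNA, Adar (0.29, adjusted p = 0.00654) and Adarb2 (0.48, adjusted p = 0.0187) were higher, though the groups overlapped for Adarb2. Adarb1, whose product edits the Gria2 codon shown above, had 338 CPM with NS and 309.8 CPM in WT (0.12, adjusted p = 0.154) and was not called.

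With MSC-EVs none of the 71 genes was called against NS (edgeR), where 0.914% of all genes were called higher and 0.251% lower. The list medians lay between -0.208 and 0.197. The largest change was that of Grik3, a kainate receptor subunit, at 46.3 against 24.5 CPM (log2 fold change 0.92, adjusted p = 0.0575), with all 3 MSC-EVs libraries above all 3 NS libraries. Grik3 was named after its value was seen. Against WT, 43 of the 71 genes were higher in MSC-EVs-treated rd10 and 10 lower, while 28.3% of all genes were called higher and 27.2% lower. The counts were 7 higher and 0 lower of 8 other ionotropic receptors, 4 and 1 of 8 metabotropic receptors, 8 and 0 of 15 auxiliary proteins, 16 and 3 of 22 scaffold and trafficking proteins, and 4 and 5 of 10 genes of release and removal.

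Against WT, Grik3 had the smallest adjusted p of the other ionotropic receptors (1.87, adjusted p = 5.42e-05). Grm7 (0.72, adjusted p = 5.58e-05) and Grm5 (0.75, adjusted p = 0.000253) led the metabotropic receptors, among which Grm8 was lower (-0.30, adjusted p = 0.0143). Cacng2, which encodes the AMPA receptor auxiliary protein stargazin (0.72, adjusted p = 8.76e-05), and Shisa6 (0.81, adjusted p = 0.000493) led the auxiliary proteins. Shank2 (0.54, adjusted p = 3.49e-05) and Shank1 (0.45, adjusted p = 0.000246) were higher among scaffolds, and Dlg4 (-0.57, adjusted p = 0.000117) and Homer3 (-0.78, adjusted p = 0.000355) lower. Slc1a3 (0.58, adjusted p = 0.000125) and Slc1a1 (0.82, adjusted p = 0.00177) were higher and Slc17a7 (-1.23, adjusted p = 3.08e-06) and Slc1a7 (-0.62, adjusted p = 4.69e-05) lower. Of the co-agonist genes Slc1a4 was higher (0.46, adjusted p = 0.000672) and Slc1a5 lower (-0.83, adjusted p = 0.000577). All 3 adenosine deaminases were higher, with Adar at 0.53 (adjusted p = 4.43e-05) and Adarb1 at 0.32 (adjusted p = 0.00375).

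**Figure D5:**
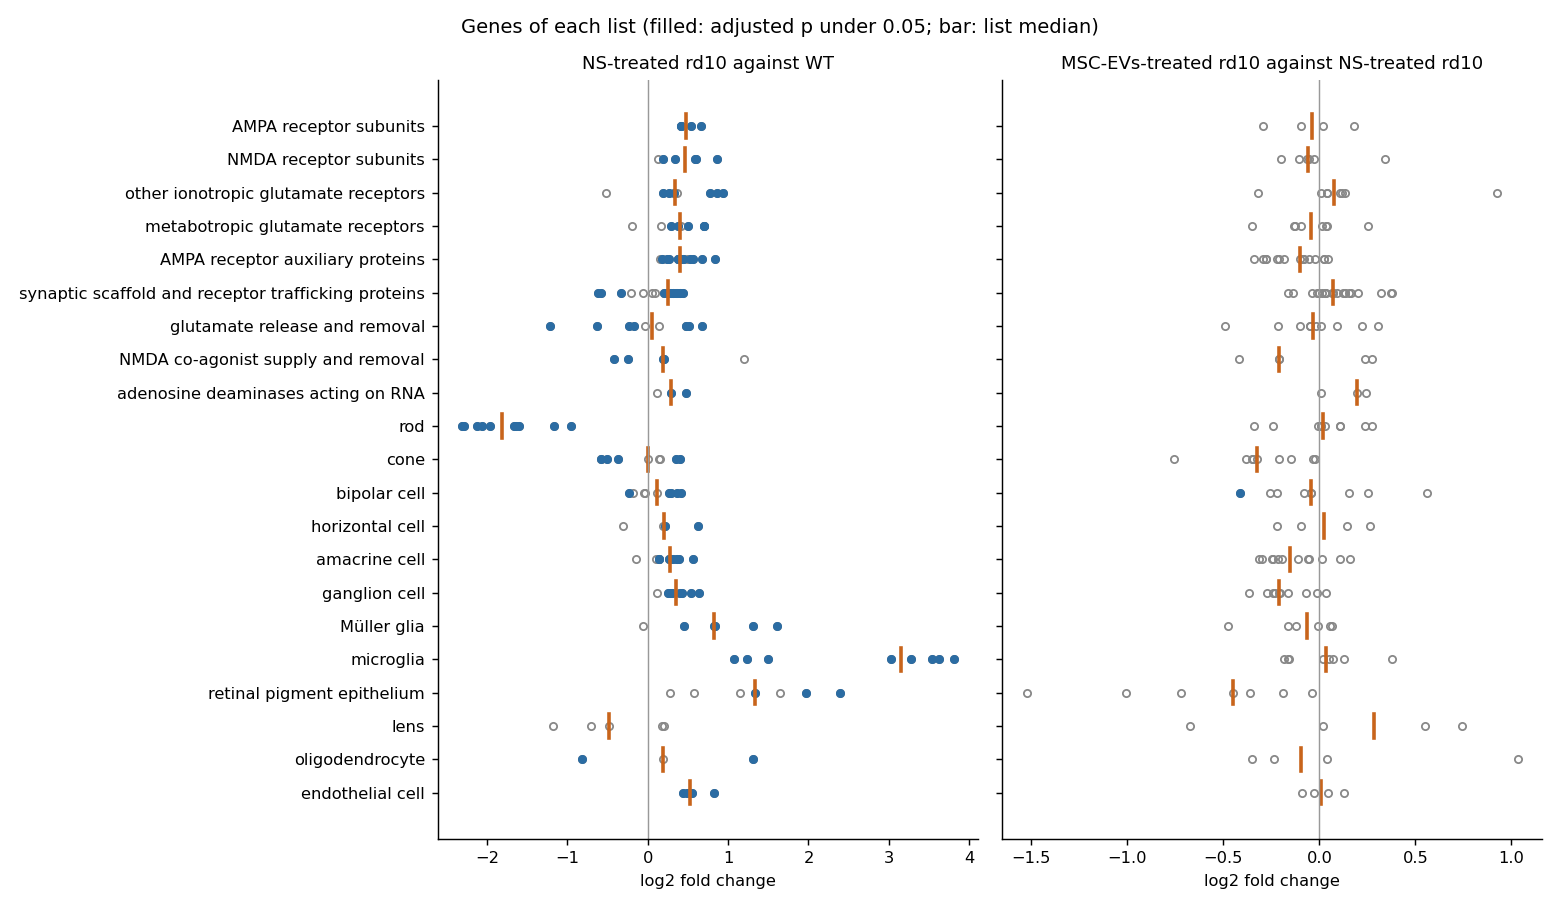
Log2 fold changes of the genes in each list for NS-treated rd10 against WT (left) and MSC-EVs-treated against NS-treated rd10 (right). Circles are genes that passed the filter, filled circles passed an adjusted p of 0.05 and bars are list medians. On the left the AMPA and NMDA subunit medians were 0.476 and 0.466 and the rod marker median was -1.82, and on the right 1 bipolar cell marker was the sole filled circle.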

How the data were processed

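For each gene, the deposited table held 9 estimated counts (expected counts) and 9 FPKM values. The authors estimated the counts from oligo(dT)-enriched RNA-seq reads without scaling them to depth, and computed the deposited FPKM by scaling to transcript length and library total. The submitters' processing notes name fastp, Bowtie2, HISAT2, StringTie 1.3.1 and RSEM. The build, the annotation and the role of each aligner are not given in the sources used here. The members and gene lists were chosen with earlier results of these data known.

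Between 9.16% and 11.7% of genes per library carried decimals, so estimated counts were rounded to whole numbers before testing, where the planned design had assumed counts. For every 2 groups compared, their 6 libraries were fitted in R 4.3.3 by edgeR 4.0.16 (filterByExpr, TMM, robust glmQLFit, glmQLFTest), with Benjamini-Hochberg adjustment over all genes tested and a threshold of 0.05. CPM shown were scaled by TMM over all 9 libraries (factors 0.92 to 1.052, prior count of 2 on the log scale for likeness only, genes of at least 1 CPM on average). The standard error was the absolute log2 fold change over the root of the F statistic. Replicates of a group differed by more than sampling noise (chi-square per degree of freedom 3.99 to 30.2). At the total of the shallowest library, 1 count is about 0.049 CPM.

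The genes named are the 10 members, the gene closest in profile to each, and at most 2 higher and 2 lower called genes of each pathway list with the smallest adjusted p. Some genes and sequences that this rule covers are not reported here. Cell type lists are described by counts, medians and sums. Shares of family FPKM were compared with exact permutation tests (scipy 1.17.1). Sequences and positions came from GENCODE M21 on GRCm38. Scripts were tested on simulated data. Alternatives were DESeq2 1.42.0 (size factors and Wald test), upper-quartile and inner retinal marker scaling, other filters, all 9 libraries in 1 fit, a replicate block, limma 3.58.1 on log2(FPKM + 1) and log2(FPKM + 0.1) for genes of a mean FPKM of at least 0.1, a fold limit and each library left out. Leaving out the MSC-EVs libraries with Y-linked counts was added after the data were seen.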

Additional observations from a re-analysis of the deposited data

How the results depend on the processing

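In each comparison the members' direction and side of the threshold were kept under most of the alternatives (148 of 170 values for NS-treated rd10 against WT, 166 of 180 for MSC-EVs-treated against NS-treated rd10 and 160 of 180 for MSC-EVs-treated rd10 against WT). When a log2 fold change of 1 or more in size was required, 0 members were called in each comparison. Between the rd10 groups the main fit called no member, a fold limit can add no call and fewer libraries make calls harder. These settings therefore say little about the stability of that result. Scaled to the inner retinal markers, 5 members were higher with NS against WT, the median of all genes shifted by -0.236 (-0.151 for MSC-EVs against WT), and the sign turned for Grin1 (-0.042) and Grin3a (-0.13) in that comparison, for Grin1 (0.033), Grin2c (0.025) and Grin3a (0.061) between the rd10 groups, and for Grin1 (-0.0092), Grin2d (-0.00057) and Grin3a (-0.065) in MSC-EVs-treated rd10 against WT. These reversed values were not called under either scaling, except that Grin1 was called in NS-treated rd10 with TMM. Between the rd10 groups 1 member, Gria2, was lower with DESeq2's Wald test (-0.29) and with all 9 libraries in 1 fit (-0.30), and Gria3 turned to -0.016 with upper-quartile normalization. The cause was not tested.

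With each library left out, the number of members higher ran from 6 to 10 for NS-treated rd10 against WT and from 6 to 7 for MSC-EVs-treated rd10 against WT, and stayed 0 between the rd10 groups. The sign then turned for uncalled values between the rd10 groups, in the ranges of Grin3a (-0.17 to 0.067), Gria3 (-0.033 to 0.054) and Grin2c (-0.18 to 0.10), and against WT with MSC-EVs in that of Grin3a (-0.0014 to 0.19). Without MSC-EVs replicates 1 and 2, which leaves 1 MSC-EVs library assumed to vary like the NS libraries, Grin1 (0.088), Grin2c (0.042) and Grin3a (0.13) turned between the rd10 groups. For the shares, the Gria1 difference turned to 0.15 points with counts in place of FPKM, 0.96 with MSC-EVs-treated rd10 alone, and ran from -0.58 to 0.17 with 1 library left out. That of Grin2d turned to -0.47 and -0.33, and ran from -0.12 to 0.28. No share was called with counts in place of FPKM, where a single share again could not pass by itself. With only 1 rd10 group against WT the smallest possible p of 0.1 allowed no call, and fewer libraries also raise that limit when 1 is left out, so these settings say nothing about stability.

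The split of all genes called depended on scaling. Of calls in NS-treated rd10 against WT 50.8% were higher with TMM, 71.9% with limma on log2(FPKM + 1) and 27.2% with inner retinal marker scaling, and against WT with MSC-EVs 51%, 71.7% and 32.8%. Between the rd10 groups 135 genes were higher and 37 lower (78.5% higher), with 633 and 283 by DESeq2 (69.1%), 638 and 388 with all 9 libraries, 97 and 57 with upper-quartile normalization (63%), 224 and 4 with inner retinal marker scaling (98.2%), and 91 and 76 with limma on log2(FPKM + 1) (54.5%). With 1 library left out these edgeR counts moved both ways, to 426 higher and 250 lower when MSC-EVs replicate 2 was omitted, to 23 and 9 on omitting NS replicate 2, and to 0 on omitting either NS replicate 3 or MSC-EVs replicate 1 (1991 and 2052 at an unadjusted p under 0.05).

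With the replicate number as a block 9, 0 and 7 members were higher in the 3 comparisons, as without it, while the calls over all genes between the rd10 groups went to 292 higher and 111 lower. Correlations of the deviations of same-numbered libraries were 0.0903, 0.178 and 0.284 between the rd10 groups. Each library there correlated best with its own number. In the comparisons with WT the same-numbered correlations were -0.0726 to 0.0686. The paper gave NS or MSC-EVs to rd10 littermates, and the labels do not say which libraries came from the same litter. The main tests did not pair the libraries, and whether the numbers mark pairs between the rd10 groups was not settled.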
